A study of Rattus norvegicus with 16 samples.

Results

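The genes described here are 8 genes of egg chromatin and maternal mRNA control: H1f8, Npm2, Dppa3, Zar1, Ybx2, Pabpc1l, Cpeb1 and Btg4. They were taken by their symbols from the authors' expression table, where they have 9 of 22663 entries, since Dppa3 is listed on chromosome 4 and again on chromosome 3. Ovaries were sampled from 8 rats in 2 groups of 4, CON and VCD (4-vinylcyclohexene diepoxide, a chemical that depletes the small follicles of rodent ovaries). No strain, age, dose or duration is given in the sources used here, and the series text speaks of mice where the organism label says rat. Each ovary gave an input library of fragmented poly(A) RNA and a second library enriched by antibody for N6-methyladenosine (m6A, adenosine methylated within mRNA), which makes 16 libraries. Input levels are FPKM, fragment counts scaled to gene length and library size, in the 8 input libraries, so levels of different genes are compared per length.

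A growing oocyte stops transcription before it is fertilised, and the egg and early embryo then run on mRNAs and proteins stored beforehand. Storage proteins keep these maternal mRNAs silent, a cytoplasmic machinery lengthens their poly(A) tails to switch them on, and a deadenylase clears them afterwards. In parallel the egg replaces somatic histone variants and chaperones with forms of its own, which package the maternal genome and open the sperm's. H1f8 is the oocyte's linker histone, and Npm2 is a nucleoplasmin, a histone chaperone of the egg. Dppa3 protects maternal DNA methylation patterns in mouse oocytes and zygotes. Zar1 and Ybx2 bind and store maternal mRNAs, and Pabpc1l is the poly(A)-binding protein of oocytes and early embryos. Cpeb1 binds an element in the untranslated 3' region of mRNAs and directs polyadenylation. Btg4 brings the CCR4-NOT deadenylase to maternal mRNAs.

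The start regions of 4 of these genes are shown because 2 of them lie at genes that fell in VCD (H1f8 and Dppa3), 1 at a gene with a lower mean that did not pass the test (Zar1) and 1 at the gene whose mean was nearly equal in both groups (Cpeb1). RefSeq gave a window of 250 bases before to 50 after the gene start for 6 of the 8 genes, in build GRCr8. Capitals mark matches to the E-box, CANNTG, whose letters are the same on both strands, and to the TATA box, TATAAA, searched on both strands and written TTTATA where it lies on the other strand. No match of one motif overlapped a match of the other in these windows.
H1f8 (chr4:150665477-150665776, plus strand): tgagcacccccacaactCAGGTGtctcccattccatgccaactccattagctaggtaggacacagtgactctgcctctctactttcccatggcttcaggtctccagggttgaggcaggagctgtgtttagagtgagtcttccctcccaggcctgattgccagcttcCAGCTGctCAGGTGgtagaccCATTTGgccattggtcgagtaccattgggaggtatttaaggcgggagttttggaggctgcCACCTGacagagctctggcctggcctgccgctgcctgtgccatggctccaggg
Dppa3 (chr4:157523176-157523475, plus strand): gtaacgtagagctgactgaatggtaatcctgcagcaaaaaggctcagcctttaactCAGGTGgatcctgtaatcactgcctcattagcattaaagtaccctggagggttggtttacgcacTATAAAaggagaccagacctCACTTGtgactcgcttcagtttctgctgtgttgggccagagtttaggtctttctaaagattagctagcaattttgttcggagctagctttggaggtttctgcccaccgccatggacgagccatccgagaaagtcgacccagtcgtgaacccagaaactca
Zar1 (chr14:35551354-35551653, minus strand): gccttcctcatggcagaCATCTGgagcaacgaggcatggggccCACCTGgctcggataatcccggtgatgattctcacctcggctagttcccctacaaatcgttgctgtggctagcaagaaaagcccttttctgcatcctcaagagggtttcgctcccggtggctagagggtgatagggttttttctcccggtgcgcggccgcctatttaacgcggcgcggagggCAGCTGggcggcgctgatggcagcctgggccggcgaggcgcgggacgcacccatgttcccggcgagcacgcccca
Cpeb1 (chr1:144816214-144816513, minus strand): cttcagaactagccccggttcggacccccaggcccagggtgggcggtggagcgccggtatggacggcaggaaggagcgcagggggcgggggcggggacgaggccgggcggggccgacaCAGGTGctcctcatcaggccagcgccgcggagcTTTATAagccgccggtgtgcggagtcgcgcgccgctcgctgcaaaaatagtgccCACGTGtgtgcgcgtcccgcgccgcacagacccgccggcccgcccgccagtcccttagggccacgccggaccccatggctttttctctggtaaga
The H1f8 window held 5 E-boxes and no TATA box. Dppa3 held 2 E-boxes and a TATA box whose first base is at -130, counted from the base before the start as -1. The Dppa3 window reads atg, the letters of a start codon, from its listed start on. That start therefore need not be where transcription begins, and -130 is no distance from such a site. Zar1 held 3 E-boxes, Btg4 held 3, Cpeb1 held 2 with a TATA box on the other strand at -99, and Pabpc1l held 0. An E-box lay in 72.1% of all 33469 RefSeq windows of this length and the TATA box in 14.2%. TAATTG and TAATTA, letters bound by homeobox proteins, lay in 8.20% and 5.36% of all windows and in 0 of these 6. The windows also differed in base composition. Cpeb1 was 71.3% G or C with 36 CG dinucleotides, and Zar1 was 63% G or C with 25. H1f8 had 57.3% and 3 CG, Dppa3 48% and 9, Pabpc1l 47% and 4, and Btg4 44% and 3, where the median over all windows was 51.7% and 7.

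Markers of the labelled tissue, the ovary, were present. The 9 granulosa markers summed to between 939 and 1176 FPKM in CON and between 845 and 1506 FPKM in VCD, and the 16 oocyte markers to between 45.5 and 66.1 FPKM in CON against between 15.5 and 21.5 FPKM in VCD. Sums over all genes lay between 403809 and 421628 FPKM, and the read depth is unknown because FPKM values hold no totals. Genes typed as ribosomal RNA summed to between 8.17 and 25.0 FPKM in CON against between 28.6 and 56.9 FPKM in VCD, highest in VCD 2 and VCD 4. Their part in the results below was not tested. Of the 9 granulosa markers, 6 were higher and 3 lower in value in VCD, with a median log2 change of 0.10. An unadjusted p under 0.05 was found for 3 of them (18.7% of all tested genes), and 1 was called by limma (0.447% of all). The called marker was Amh, a hormone of the granulosa in small follicles. Amh fell from 59.5 ± 11.7 to 13.5 ± 7.63 FPKM (SD of n = 4, log2 change -2.19 ± 0.32 SE, limma adjusted p = 0.0297, or 0.0441 with the block). Its call was lost without CON 1 (0.107), CON 2 (0.0836), CON 3 (0.1103), VCD 2 (0.0596) or VCD 4 (0.0855). Cyp19a1, aromatase, had means of 25.2 ± 21.8 and 79.0 ± 45.7 FPKM (limma adjusted p = 0.188). The 5 stroma markers, of which 0 were called by limma and 2, Dcn and Lum, had an unadjusted p under 0.05, summed to between 553 and 774 FPKM in CON and between 401 and 582 FPKM in VCD. The part of other cell types in the results was not tested. In whole ovary RNA, fewer oocytes and less RNA per oocyte cannot be told apart.

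The comparison of input libraries asks whether egg chromatin and maternal mRNA control transcripts differ between VCD and CON ovaries. H1f8, Npm2 and Dppa3 on chromosome 4, the egg chromatin genes, fell in VCD. Zar1, Ybx2, Btg4, Pabpc1l and the chromosome 3 entry of Dppa3 had lower means in VCD and did not pass the test or were too low to be tested, and Cpeb1 had nearly the same mean in both groups. Of the 9 entries, 6 averaged 0.5 FPKM or more across the libraries and were tested in one limma fit of log2(FPKM + 1) over all 14978 such genes. At an adjusted p under 0.05, 3 of the 6 were lower and 0 higher in VCD, where 0.340% of all tested genes were called lower. H1f8, Zar1 and Dppa3 on chromosome 4 passed the filter through their CON libraries, with VCD means under 0.5 FPKM, so the count of called entries is a description and no support; among the called entries Npm2 averaged more than that in VCD as well. In the authors' deposited table, 5 of the 9 entries had a q-value under 0.05 and were lower in VCD, namely H1f8, Npm2, Zar1, Dppa3 on chromosome 4 and Btg4, where 2.83% of its 22663 genes were.

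The libraries of most entries were fully separated between the groups. For 5 of the 6 tested entries every VCD library lay below every CON library, against 9.58% of all tested genes. Among the 5, H1f8, Zar1 and Dppa3 on chromosome 4 passed the filter through their CON libraries. This count too is therefore a description and no support. Counting also the entries too low to test, the libraries of 8 of the 9 entries were separated in this way, against 7.57% of all genes with a value. Cpeb1 was the exception. The batch label of the samples gives the same number from 1 to 4 to a CON and a VCD rat. For the 8 entries other than Cpeb1, any pairing of separated groups has VCD as the lower library, so the 4 numbers add nothing there. Fitted with this number as a block, 2 of the 6 tested entries were called, and 31 of all 14978 tested genes.

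**Figure D1:**
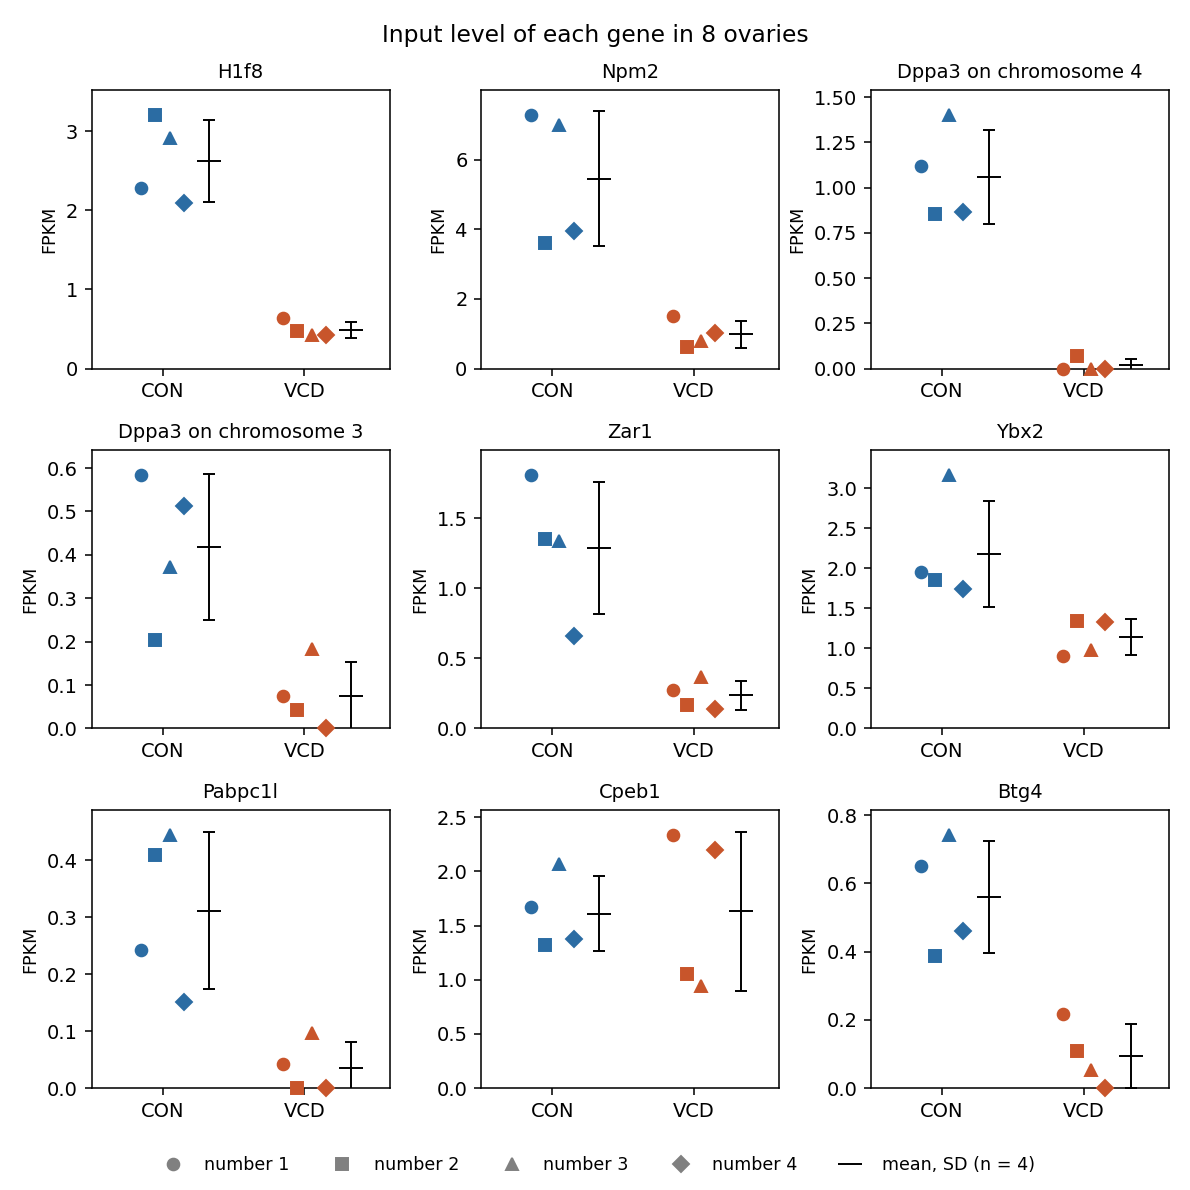
FPKM of each entry in the input libraries of 4 CON (blue) and 4 VCD (orange) ovaries, with the mean and SD beside each group; marker shapes give the batch number, and the vertical scale differs between panels. For Cpeb1 the groups overlap, while for the other 8 entries the 4 VCD libraries lie below the 4 CON libraries.

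Among the egg chromatin genes, H1f8 (ENSRNOG00000025251; chromosome 4, 147844658 to 147849779, plus strand) measured 2.28, 3.20, 2.91 and 2.097 FPKM in CON 1 to CON 4. In VCD 1 to VCD 4 it measured 0.635, 0.480, 0.428 and 0.419 FPKM. The VCD libraries lay close together, and the highest of them was well under the lowest CON library. In the means H1f8 fell to 0.491 ± 0.0997 FPKM from 2.62 ± 0.521 (SD of n = 4), a change of -1.27 ± 0.13 (SE) on the log2(FPKM + 1) scale, which understates changes of low genes (limma adjusted p = 0.00493; 0.0451 with the block). The CON mean was 5.35 times the VCD mean. H1f8, whose start window held 5 E-boxes, kept its call when any single library was left out, with limma adjusted p values from 0.0112 to 0.0321, and lost it without VCD 2 and VCD 4 (0.111).

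Npm2 (ENSRNOG00000025638; chromosome 15, 52337528 to 52344629, minus strand) had the highest level of the 9 entries in CON. It measured 7.27, 3.59, 6.99 and 3.96 FPKM in CON 1 to CON 4 and 1.52, 0.630, 0.792 and 1.03 FPKM in VCD 1 to VCD 4. CON 1 and CON 3 were about equally high, CON 2 and CON 4 lower, and the groups did not overlap. Npm2 fell from 5.45 ± 1.95 to 0.991 ± 0.386 FPKM (SD of n = 4; log2 change -1.66 ± 0.22 SE, limma adjusted p = 0.0210; 0.0426 with the block). Its call was lost without CON 1 (0.0809), CON 3 (0.0756), VCD 2 (0.0548) or VCD 4 (0.0781), while the log2 change stayed between -1.81 and -1.53 when any single library was left out. The ratio of Npm2 to H1f8 was 2.15 in the CON mean and 2.00 in the VCD mean, with single libraries between 1.12 and 3.19 in CON and between 1.31 and 2.45 in VCD, so this ratio overlapped between the groups.

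Dppa3 on chromosome 4 (ENSRNOG00000022950; 155437675 to 155440828, plus strand) was the entry with the lowest level in VCD. It measured 1.12, 0.854, 1.40 and 0.866 FPKM in CON 1 to CON 4. It was listed at 0 in VCD 1, VCD 3 and VCD 4 and at 0.0706 FPKM in VCD 2. Each CON library of this gene, whose start window held 2 E-boxes and a TATA box, was therefore above each VCD library. In every library 10 of 10 housekeeping genes had a value above 0. The lowest of these, Tbp, averaged 8.84 FPKM in CON, so they cannot show whether a gene as low as Dppa3 is missed. The gene fell by 1.01 ± 0.12 (SE) on the log2(FPKM + 1) scale, from 1.06 ± 0.258 to 0.0176 ± 0.0353 FPKM (SD of n = 4; limma adjusted p = 0.0131), and with the block its call was lost (0.0665). It was also lost without CON 1 (0.0662) or VCD 4 (0.0638). The whole of this gene, 3154 bases, is overlapped on the other strand by LOC100909595, which measured 1.21 FPKM in CON against 1.13 FPKM in VCD. The sources used here do not give whether the counting used strand, so how reads of the pair were divided is uncertain. This Dppa3 entry was listed at 0 in VCD 1, VCD 3 and VCD 4, while LOC100909595 averaged 1.13 FPKM over the VCD libraries.

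The second Dppa3 entry, on chromosome 3 (ENSRNOG00000031161; 111298713 to 111299189, plus strand), spans 477 bases and shares its symbol with the first, so how reads were divided between the entries is uncertain. It measured 0.584, 0.203, 0.373 and 0.512 FPKM in CON 1 to CON 4 and 0.0752, 0.0427, 0.183 and 0 FPKM in VCD 1 to VCD 4. CON 2 and VCD 3 were nearly equal, and the groups did not overlap. The entry was below the filter, and in the fit with no filter it had a limma adjusted p of 0.124.

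Among the genes that store maternal mRNAs, Zar1 (ENSRNOG00000026150; chromosome 14, 37759776 to 37763712, minus strand) measured 1.81, 1.35, 1.34 and 0.661 FPKM in CON 1 to CON 4. In VCD 1 to VCD 4 it measured 0.274, 0.170, 0.367 and 0.137 FPKM. CON 4 was low for its group, and it was still above VCD 3, the highest VCD library. The means were 1.29 ± 0.472 and 0.237 ± 0.104 FPKM (SD of n = 4; log2 change -0.87 ± 0.17 SE, limma adjusted p = 0.0631; 0.0834 with the block). Without CON 4 the gene passed, with a limma adjusted p of 0.0279. With any other single library left out it did not, at limma adjusted p values from 0.0596 (without VCD 3) to 0.182 (without CON 3). The CON mean was 5.44 times the VCD mean, close to the 5.35 times of H1f8 and the 5.50 times of Npm2, and no test between these genes was made.

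Ybx2 (ENSRNOG00000017117; chromosome 10, 56546710 to 56551863, plus strand), a Y-box protein that also serves male germ cells, measured 1.95, 1.85, 3.16 and 1.75 FPKM in CON 1 to CON 4. It measured 0.905, 1.34, 0.983 and 1.33 FPKM in VCD 1 to VCD 4. CON 3 stood above the rest, and the lowest CON library was only a little above the highest VCD library. The means were 2.18 ± 0.660 and 1.14 ± 0.229 FPKM (SD of n = 4; log2 change -0.56 ± 0.15 SE, limma adjusted p = 0.117), a CON mean of 1.91 times the VCD mean. Within the batch numbers, VCD was at 46.4%, 72.3%, 31.1% and 76.3% of CON.

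Among the genes that act on the poly(A) tail, the libraries of Pabpc1l and Btg4 were separated between the groups and those of Cpeb1 were not. Pabpc1l (ENSRNOG00000012750; chromosome 3, 160410757 to 160444940, plus strand) was the lowest entry in CON, at 0.242, 0.408, 0.444 and 0.152 FPKM in CON 1 to CON 4. It measured 0.0430 FPKM in VCD 1 and 0.0959 FPKM in VCD 3 and was listed at 0 in VCD 2 and VCD 4. Its groups did not overlap, and its means were 0.311 ± 0.138 and 0.0347 ± 0.0456 FPKM (SD of n = 4). It was below the filter and had a limma adjusted p of 0.116 in the fit with no filter.

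Cpeb1 (ENSRNOG00000019161; chromosome 1, 143171264 to 143278485, minus strand) measured 1.67, 1.32, 2.07 and 1.37 FPKM in CON 1 to CON 4. It measured 2.34, 1.06, 0.947 and 2.20 FPKM in VCD 1 to VCD 4. VCD 1 and VCD 4 were the highest of the 8 libraries and VCD 2 and VCD 3 the lowest, so the VCD libraries enclosed the CON libraries on both sides. The means were 1.61 ± 0.344 and 1.63 ± 0.734 FPKM (SD of n = 4; log2 change -0.02 ± 0.20 SE, limma adjusted p = 0.966). VCD was lower than CON in 2 of the 4 batch numbers for this gene, the one with 36 CG dinucleotides in its start window. This log2 change was above 0 with the libraries scaled to a common median (0.04) or quantile normalized (0.13).

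Btg4 (ENSRNOG00000011277; chromosome 8, 55504359 to 55508259, plus strand), the deadenylase adaptor, measured 0.650, 0.386, 0.742 and 0.462 FPKM in CON 1 to CON 4. It measured 0.218, 0.110, 0.0525 and 0 FPKM in VCD 1 to VCD 4. The highest VCD library was below the lowest CON library. The means were 0.560 ± 0.164 and 0.0952 ± 0.0934 FPKM (SD of n = 4). Btg4 was below the filter, and in the fit with no filter its limma adjusted p was 0.0774.

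Ordered by level in CON, Npm2 stood first at 5.45 FPKM, above H1f8 in each of the 4 libraries with no overlap of their ranges. H1f8, Ybx2, Cpeb1, Zar1 and Dppa3 on chromosome 4 followed, and the ranges of each neighbouring pair overlapped. Dppa3 on chromosome 4 was clear of Btg4, which came next, and Btg4, the chromosome 3 entry of Dppa3 and Pabpc1l again overlapped with their neighbours. In VCD the order was Cpeb1, Ybx2, Npm2, H1f8, Zar1, Btg4, Dppa3 on chromosome 3, Pabpc1l and Dppa3 on chromosome 4. Among these, H1f8 and Zar1 were the one neighbouring pair whose ranges did not overlap. Cpeb1 and Ybx2 thus took the first places in VCD, and Npm2 went from 3.33 times to 0.637 times the Cpeb1 level, with the single-library ratios between 2.72 and 4.34 in CON and between 0.468 and 0.836 in VCD. The 9 entries together summed to between 11.8 and 19.4 FPKM in CON against between 3.85 and 6.002 FPKM in VCD.

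The levels were then set against transcripts of the oocyte's own structure and signals, to describe how each gene stood relative to these in the same library. The reference was the summed FPKM of Zp1, Zp2 and Zp3, which encode the zona pellucida, and of Gdf9 and Bmp15, oocyte growth factors. It lay between 19.9 and 32.9 FPKM in CON against between 5.65 and 8.82 FPKM in VCD. Of the 5 genes in this sum, 3 fell in VCD, where limma called 0.340% of all tested genes lower. H1f8 stood at 10.4% ± 2.06 of this sum in CON and 7.21% ± 0.694 in VCD (SD of n = 4), and the groups did not overlap. Dppa3 on chromosome 4 stood at 4.14% ± 0.403 in CON and 0.292% ± 0.584 in VCD, again with no overlap. For H1f8 this separation rested on Zp2, which stood at 44.1% of its CON mean in VCD and made up 60.1% of the VCD reference, where Gdf9, Zp1 and Zp3 stood at 18.8%, 16.2% and 13.9% of theirs. Without Zp2 in the reference, an alternative chosen after seeing the data, H1f8 stood at 16.6% ± 4.33 in CON and 18.6% ± 3.28 in VCD, and the groups overlapped. Dppa3 on chromosome 4 then stood at 6.55% ± 0.791 and 0.772% ± 1.54, with no overlap.

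For Npm2 the percentage was 21.2 ± 5.72 in CON and 14.4 ± 3.91 in VCD, and for Zar1 5.04 ± 1.70 and 3.43 ± 1.32 (SD of n = 4). Both overlapped between the groups, with Zp2 in the reference or without it, as did Btg4 at 2.19% ± 0.411 and 1.27% ± 1.097, Dppa3 on chromosome 3 and Pabpc1l. For Ybx2 and Cpeb1 the percentage was higher in VCD. The reference sum was lower there by a larger factor than Ybx2, and Cpeb1 had nearly equal means. Whether the reads of these genes came from oocytes was not tested. Ybx2 stood at 8.45% ± 0.919 in CON and 17.6% ± 6.35 in VCD, and Cpeb1 at 6.33% ± 0.605 and 24.2% ± 11.2 (SD of n = 4), with no overlap for either. With Zp1, Zp2 and Zp3 alone as the reference, the Ybx2 groups overlapped, at 12.1% ± 1.19 and 22.7% ± 8.56, and those of H1f8, Dppa3 on chromosome 4 and Cpeb1 did not. Without Zp2, neither Ybx2, at 13.5% ± 2.72 and 46.5% ± 21.0, nor Cpeb1, at 10.01% ± 1.25 and 63.5% ± 35.4, overlapped. These percentages are descriptions, with no test, since the genes were chosen with earlier results known.

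**Figure D2:**
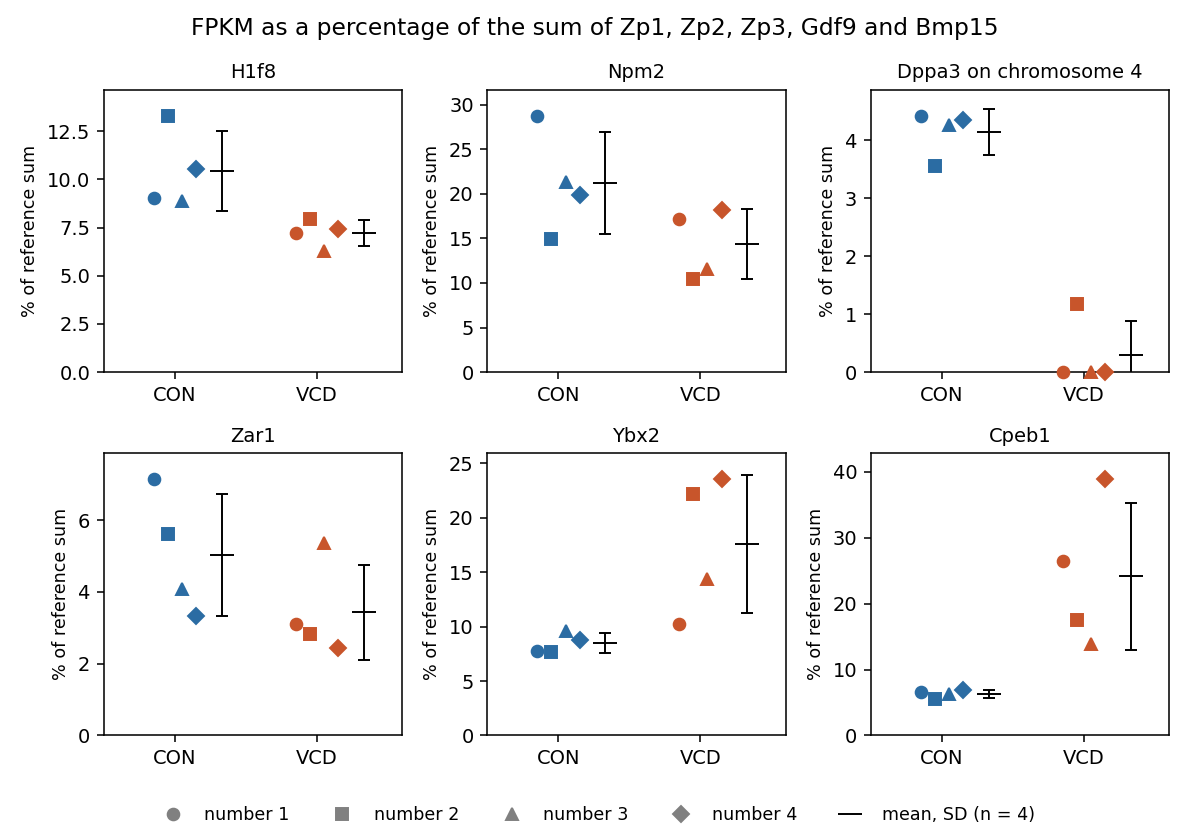
FPKM of the 6 tested entries as a percentage of the summed FPKM of Zp1, Zp2, Zp3, Gdf9 and Bmp15 in the same library, for 4 CON (blue) and 4 VCD (orange) ovaries with mean and SD; marker shapes give the batch number. With this reference H1f8 and Dppa3 on chromosome 4 are lower in each VCD library, Ybx2 and Cpeb1 higher, and Npm2 and Zar1 overlap; without Zp2, 60.1% of the VCD reference, H1f8 overlaps as well.

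Most of these genes have relatives that somatic cells use for the same task, and their levels in the same input libraries are given beside them. Over all tested genes, limma called 0.447% in either direction and 18.7% had an unadjusted p under 0.05. Of 15 tested relatives, 0 were called in either direction by limma and 5 had an unadjusted p under 0.05. At the authors' q-value 1 of the 17 in the table was lower and 0 higher (2.83% and 1.75% of all genes). The median log2 change of the tested relatives was -0.06, that of all tested genes also -0.06. Npm1, the nucleolar nucleoplasmin, measured 199.6 ± 27.8 FPKM in CON against 131.7 ± 20.9 FPKM in VCD (SD of n = 4; log2 change -0.60 ± 0.14 SE, limma adjusted p = 0.0925). H1f4, a somatic linker histone, measured 0.823 ± 0.416 and 1.94 ± 0.812 FPKM (limma adjusted p = 0.154). Pabpc1, the general cytoplasmic poly(A)-binding protein, measured 319.9 ± 31.4 and 264.8 ± 19.2 FPKM (limma adjusted p = 0.185), and Cpeb4, a relative of Cpeb1, 10.4 ± 0.298 and 7.35 ± 2.61 FPKM (limma adjusted p = 0.211).

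The egg forms were a small share of each family sum in the poly(A) input. H1f0 and H1f3 were not found, and how fully poly(A) RNA captured each relative was not tested. H1f8 made up 2.81% ± 0.468 of the summed FPKM of the 6 H1 genes found in CON and 0.422% ± 0.115 in VCD (SD of n = 4). Npm2 made up 2.28% ± 0.571 of the nucleoplasmin sum in CON and 0.651% ± 0.289 in VCD, Btg4 0.546% ± 0.123 and 0.0666% ± 0.0493 of the Btg sum, and Pabpc1l 0.0808% ± 0.0350 and 0.0100% ± 0.0129 of the poly(A)-binding sum. Ybx2 made up 0.509% ± 0.216 of the Y-box sum in CON and 0.254% ± 0.0615 in VCD. Cpeb1 was a larger share, 10.4% ± 1.79 of the Cpeb sum in CON and 13.0% ± 6.54 in VCD, and its share overlapped between the groups. The 5 somatic H1 genes in the first of these sums ranged together from 78.5 to 98.1 FPKM in CON and from 78.3 to 163.9 FPKM in VCD, and Npm1 with Npm3 from 194.2 to 264.8 and from 121.9 to 189.4 FPKM.

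**Figure D3:**
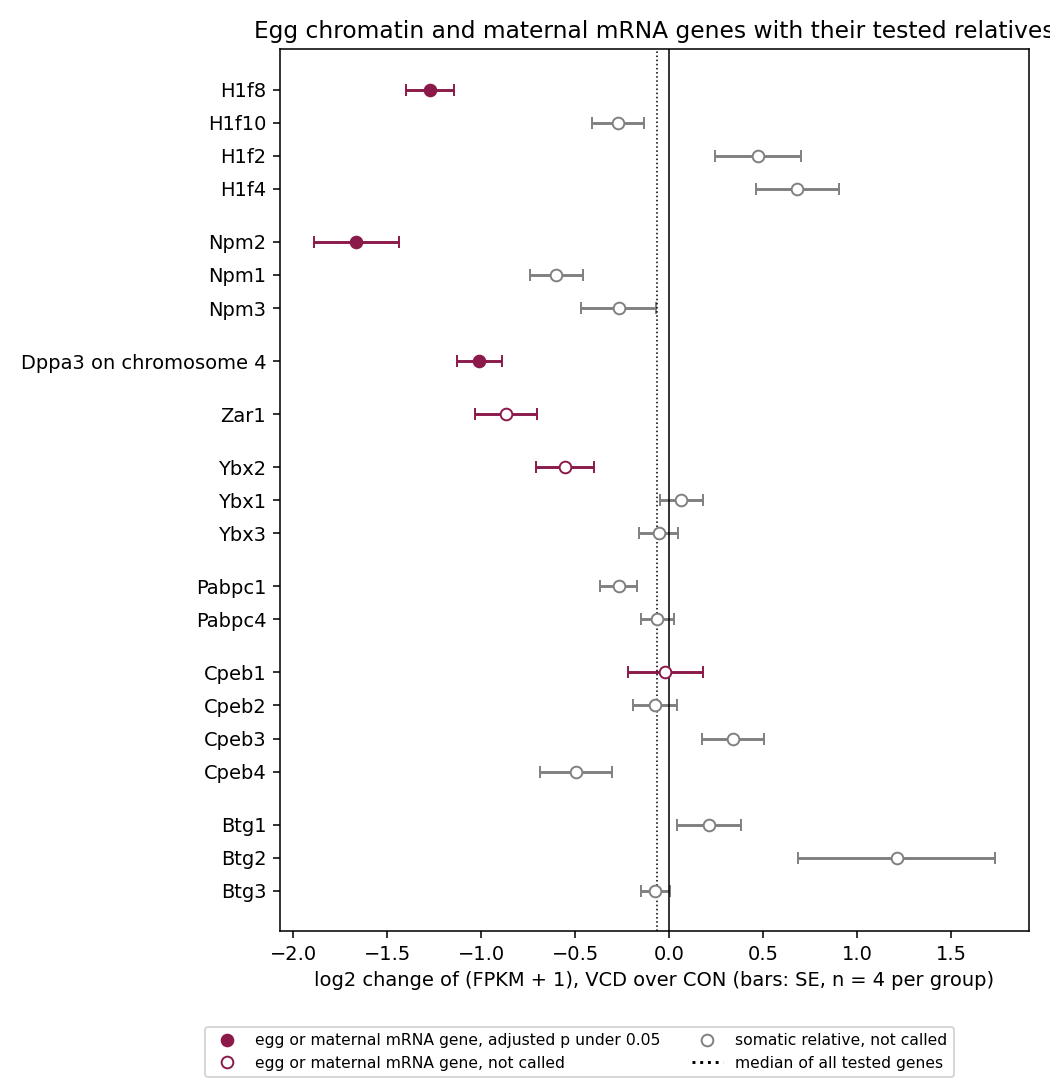
Change of log2(FPKM + 1) between VCD and CON ovaries with its SE (n = 4 each) for the 6 tested entries (dark red) and their 15 tested somatic relatives (grey), grouped by family; filled points had a limma adjusted p under 0.05, and the dotted line is the median of all tested genes, -0.06. H1f8, Npm2 and Dppa3 on chromosome 4 are filled, and no relative is.

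The partners of these genes were read from the same fit. Of 20 tested genes for cytoplasmic polyadenylation and repression, 0 were called by limma and 7 had an unadjusted p under 0.05 (18.7% of all tested genes). Their median log2 change was -0.10. At the authors' q-value 1 of the 23 in the table was lower, where 2.83% of all genes were. Pum2, a repressor that binds the untranslated 3' region of mRNAs, measured 20.9 ± 1.75 FPKM in CON against 15.9 ± 2.35 FPKM in VCD (limma adjusted p = 0.137, SD of n = 4). Cpsf4, a subunit of the cleavage and polyadenylation factor, measured 19.7 ± 1.23 and 16.6 ± 1.81 FPKM (limma adjusted p = 0.202). Lsm14a, of repressed mRNA particles, measured 25.9 ± 1.30 and 22.3 ± 2.44 FPKM (limma adjusted p = 0.228). Pabpn1, the nuclear poly(A)-binding protein, measured 84.7 ± 8.68 and 71.8 ± 6.31 FPKM (limma adjusted p = 0.237, SD of n = 4). Of 21 tested genes for deadenylation and decay, the machinery that Btg4 recruits, 0 were called by limma, 9 had an unadjusted p under 0.05 (18.7% of all), 0 passed the authors' q-value, and the median log2 change was -0.09. Cnot7, a deadenylase subunit that Btg4 binds, measured 21.8 ± 1.15 and 17.2 ± 2.38 FPKM (limma adjusted p = 0.142), Cnot6, another deadenylase subunit, 19.1 ± 1.27 and 15.1 ± 2.22 FPKM (0.148), Tut4, a uridylyltransferase, 17.3 ± 3.55 and 11.6 ± 2.61 FPKM (0.156), and Cnot6l, a relative of Cnot6, 6.72 ± 0.739 and 5.07 ± 0.749 FPKM (limma adjusted p = 0.157). In both lists the genes lower in value outnumbered those higher, 15 of 20 and 17 of 21, where 63.5% of all tested genes were lower.

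Of 19 tested genes of egg and zygote chromatin, 0 were called by limma (0.447% of all tested genes). An unadjusted p under 0.05 was found for 9 (18.7% of all), and the median log2 change was -0.18. At the authors' q-value 5 of the 20 in the table were lower, where 2.83% of all genes were. Uhrf1, which brings the maintenance methyltransferase to DNA and which Dppa3 restrains in mouse oocytes, measured 7.04 ± 1.72 FPKM in CON against 3.02 ± 1.01 FPKM in VCD (log2 change -1.01 ± 0.20 SE, limma adjusted p = 0.0661). Dnmt1, that methyltransferase, measured 16.7 ± 2.14 and 11.3 ± 1.21 FPKM (limma adjusted p = 0.0731), Zfp57, a guard of imprinted methylation, 5.07 ± 0.765 and 3.16 ± 0.351 FPKM (0.0747), and Nasp, a histone chaperone, 13.1 ± 2.36 and 8.04 ± 1.23 FPKM (0.0774; SD of n = 4). Dividing somatic cells use Uhrf1, Dnmt1 and Nasp as well.

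Of 7 tested mRNAs that maturing eggs store and translate, 1 fell, where limma called 0.340% of all tested genes lower. An unadjusted p under 0.05 was found for 6 of the 7 (18.7% of all tested genes). At the authors' q-value 5 of the 10 in the table were lower, where 2.83% of all genes were. The median log2 change of the 7 was -0.92. These levels are of whole ovary RNA and were not assigned to oocytes, and the part of dividing somatic cells in them was not tested. Ccno, a cyclin-like gene, fell from 3.18 ± 0.865 to 0.405 ± 0.262 FPKM (SD of n = 4; log2 change -1.57 ± 0.18 SE, limma adjusted p = 0.0126). Ccnb1, cyclin B, measured 10.4 ± 2.28 and 4.68 ± 1.31 FPKM (limma adjusted p = 0.0605), Cdc20, an activator of the anaphase complex, 9.75 ± 2.73 and 4.68 ± 1.52 FPKM (limma adjusted p = 0.0911), and Bub1b, a spindle checkpoint kinase, 3.45 ± 0.970 and 1.38 ± 0.709 FPKM (limma adjusted p = 0.0945). The call of Ccno was lost without CON 1 or VCD 4, and without VCD 3 the 4 lists of relatives, partners, chromatin and stored mRNAs held 4 called genes.

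Across the 8 libraries the tested entries other than Cpeb1 varied together. Pearson correlations of log2(FPKM + 1) among H1f8, Npm2, Dppa3 on chromosome 4, Zar1 and Ybx2 lay between 0.76 and 0.96, and those of Cpeb1 with the 5 others between 0.05 and 0.29. The libraries share the group difference, so these values describe it and are no test. Npm2 and H1f8 each reached 0.96 with Dppa3 on chromosome 4. The 8 genes outside the set whose profile was most like the mean profile of the tested entries were Simc1, Tram2, Oas1e, Mex3c, Mogs, Nlrp5, Ccno and Ccdc120, with Pearson r between 0.976 and 0.991 over 8 libraries. Nlrp5, a maternal-effect gene of the oocyte, measured 1.51 FPKM in CON against 0.124 FPKM in VCD (limma adjusted p = 0.0210). The single genes nearest to H1f8 were Esrp1, Cnnm2 and LOC688583, to Npm2 Ccno, Tram2 and Nlrp5, and to Zar1 LOC103690019, Zbtb47 and Ndc80. Dppa3 on chromosome 4 was nearest to AC135142.1, Gdf9 and Mosmo, Ybx2 to AABR07002774.4, Zfp472 and Arrb2, and Cpeb1 to Eid2b, Pnrc1 and Atp1b3. Eid2b, nearest to Cpeb1 at a Pearson r of 0.981 over 8 libraries, had nearly equal means of 3.34 and 3.38 FPKM.

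The m6A peak lists were made by the authors from the pooled replicates of each group, so their values have no replicate spread, and they are used here to describe where the peaks lay. Peak spans and their percentages of a gene were counted along the genome, with any introns included. They are therefore no measure of the methylated length of an mRNA. The CON list held 22316 peaks and the VCD list 21528. Of the 8 genes, 6 had a peak in CON and 4 of these also in VCD, 7 and 4 peaks in all. Among all genes with a CON peak, 94.2% also had a VCD peak. Dppa3 and Pabpc1l had a row in neither list. Of the 7 CON peaks, 4 were overlapped by a VCD peak by at least 1 base on the same strand, against 88.0% of all CON peaks. Of the 4 genes with peaks in both lists, 0 had a row in the authors' table of differential peaks, which held 37.0% of all 12366 genes with peaks in both.

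For H1f8 and Zar1 the VCD peak lay inside the CON peak, toward the 3' end of the gene. For H1f8 the CON peak was listed at 147848409 to 147849755, annotated to the stop codon, with a log2 enrichment of IP over input of 1.81. The VCD peak was listed at 147849258 to 147849655, annotated as exonic, with 2.29. For Zar1 the CON peak spanned 3257 bases from 37759776 to 37763032 and the VCD peak 300 bases from 37759776 to 37760075, both annotated to the stop codon, with a log2 enrichment of 3.44 and 3.27. The Zar1 CON peak covered 82.7% of the gene and the VCD peak 7.62%. The narrower VCD spans thus came with an enrichment near or above that in CON, and whether they differ was not tested.

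Npm2 had a CON peak over its first 3950 bases (52340680 to 52344629) and a VCD peak over all 7102 bases of the gene, with a log2 enrichment of 2.47 and 2.42, both annotated as exonic. Cpeb1 had a single peak of 100 bases in its 3'UTR, listed at 143172014 to 143172113 in both groups, with a log2 enrichment of 1.23 in CON and 1.16 in VCD. These were among the weakest peaks of the lists, above 1.69% of the CON peaks and 0.910% of the VCD peaks in enrichment. The Cpeb1 peak and its expression were thus both nearly equal in the 2 groups.

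Ybx2 and Btg4 had peaks in CON and none in the VCD list. The Ybx2 peak (56546710 to 56550624) covered 76.0% of the gene and was annotated to the start codon, with a log2 enrichment of 2.14. Btg4 had an exonic peak (55505038 to 55505613) with 1.79 and a stop codon peak (55506360 to 55508025) with 3.47, the highest enrichment of the 7 CON peaks, above 80.1% of all CON peaks. Of 1375 genes with a CON peak with a VCD mean under 0.5 FPKM, among them Btg4, 71.3% also had a VCD peak, and of 1098 with a VCD mean from 1 to 2 FPKM, among them Ybx2, 95.4% did. The part of the level in the missing peaks was not tested. With an overlap of at least 50% of both peaks, 2 of the 7 CON peaks were shared, those of Npm2 and Cpeb1, against 76.4% of all CON peaks.

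**Figure D4:**
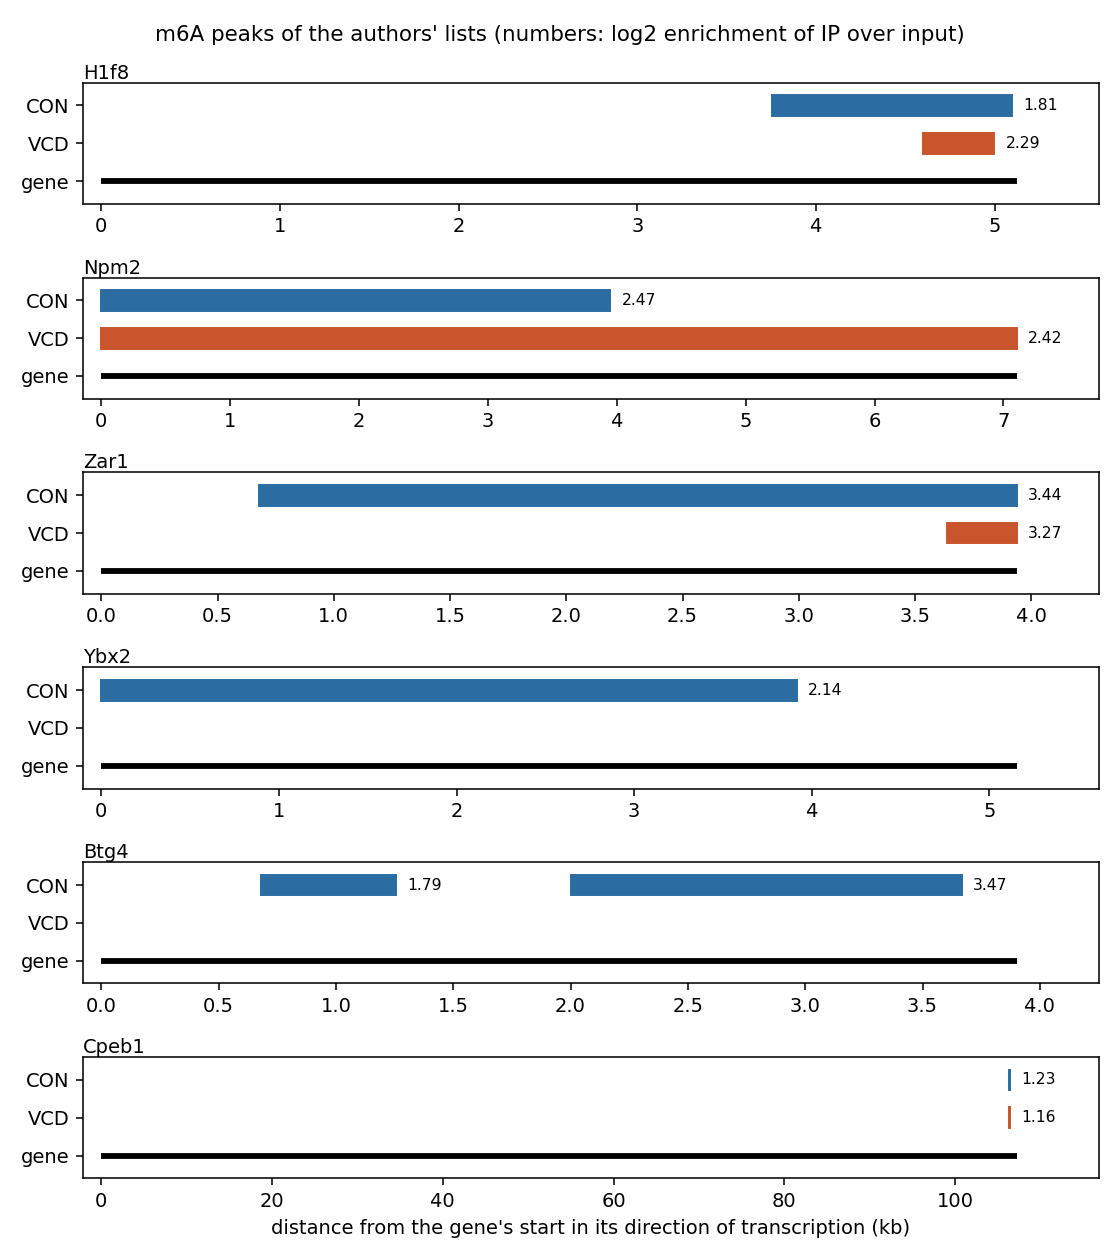
m6A peaks of the 6 genes with a peak in the authors' CON list (blue) and VCD list (orange) along each gene (black), in kb from the gene's start in its direction of transcription; numbers are the log2 enrichment of IP over input, and the horizontal scale differs between panels. H1f8 and Zar1 have a shorter VCD peak inside the CON peak, Npm2 a longer one, Cpeb1 the same one, and Ybx2 and Btg4 have none in VCD. Lengths run along the genome, with any introns included.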

How the data were processed

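Expression was measured in 8 input libraries and m6A in pulldown and input libraries of the same rats. Per the file headers, the deposited table holds the authors' FPKM per gene and library, the fold ratio of group means, its log2 value, and p-values and q-values of a test that the sources used here do not name. The authors' peak lists give a log2 enrichment and p-values per peak. The submitters' processing notes name HOMER 4.10, edgeR 4.1, StringTie 2.1.2, HISAT2 2.0.4 and fastp 0.19.4 without their roles, and a human build although the gene identifiers are those of rat. Coordinates of genes and peaks are therefore printed as in the files, with peak starts counted from 1, in a build that the sources used here do not give. Promoter windows are in GRCr8 and were not joined to these coordinates.

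The 14978 genes of 22663 that averaged 0.5 FPKM or more were fitted on log2(FPKM + 1) in R 4.3.3 by limma 3.58.1, using lmFit and then eBayes with a trend in the variance. P-values were adjusted by Benjamini-Hochberg over all tested genes. Peaks and ratios were handled in Python 3.11.15. The libraries were taken as separate rats from their titles, and the p-values measure the spread between these libraries. Deviations from the group means of CON and VCD libraries with the same batch number correlated at -0.01, -0.09, 0.01 and -0.07. The pairing comes from the batch label alone, whose meaning is not given further.

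The genes and lists were chosen with earlier results of these data known. The named genes were the 8 genes, their 3 nearest genes each, the 8 nearest to their mean profile, and up to 4 genes per list, by smallest p-value. Btg2 and H1f2 were chosen after their values were seen. Listed genes missing from the table used, such as the 5 testis germ cell markers, H1f0 and Eif4e1b, were not analysed here. Alternatives changed the pseudocount, the filter, the scaling, the block and the libraries used. The alternatives of no filter with the block and of a reference without Zp2 were added after seeing the data.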

Additional observations from a re-analysis of the deposited data

Results flagged for a closer look

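Of 18 groups of 4 libraries checked for a library far from the others, 2 had one, where chance gives about 1 in 20. For Ybx2, CON 3 measured 3.16 FPKM and the other CON libraries between 1.75 and 1.95 FPKM. Without CON 3 the log2 change of Ybx2 was -0.42 (limma adjusted p = 0.248), against -0.56 with it. For Dppa3 on chromosome 4, VCD 2 measured 0.0706 FPKM and the other VCD libraries were listed at 0. Beside libraries at 0 any value stands apart, so the chance rate does not hold for this group. Without VCD 2 the log2 change was -1.03 (limma adjusted p = 0.0433), against -1.01 with it.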

How the results depend on the processing

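Of the 6 tested entries, 3 were called, and between 1 and 4 when a single library was left out, the fewest without CON 1 or VCD 4 (H1f8 remained in both). Over all tested genes 67 were called, and between 12 and 115 when a single library was left out (12 and 13 for CON 1 and VCD 4, 22 and 23 for CON 3 and CON 2, 29 for VCD 2, and 115 for VCD 3). In the lists around the genes 1 gene was called, and between 0 and 4 with a library left out. Without VCD 2 and VCD 4, 0 of the 6 entries (5 at an unadjusted p under 0.05) and 7 genes of the table were called by limma. With the batch number as a block, 31 genes of the table were called, and with the block and no filter 0, with 3100 at an unadjusted p under 0.05. Of the 9 entries then tested 0 were called, with 8 at an unadjusted p under 0.05. The authors' q-value gave 5 of the 9 entries and 1038 genes. The block changed the call of no tested entry but Dppa3 on chromosome 4. With an overlap of at least 50% of both peaks 2 CON peaks were shared instead of 4, where 76.4% of all CON peaks were shared instead of 88.0%. A stricter peak p left the 4, with 88.0% of all CON peaks shared. The Cpeb1 log2 change was 0.0389 after scaling to a common median, 0.13 after quantile normalization and between -0.15 and 0.11 with a library left out. A pseudocount of 0.1, no filter, scaling to a common median and quantile normalization each gave 3 called entries, and a filter at 1 FPKM gave 2, with Zar1 and Dppa3 on chromosome 4 no longer tested. In this order, these settings called 54 of 14978, 68 of 22164, 59 of 14978, 57 of 14978 and 47 of 13675 tested genes. Without Zp2 in the reference, the ratio of VCD to CON percentages went from 0.691 to 1.12 for H1f8, from 0.677 to 1.12 for Npm2 and from 0.681 to 1.11 for Zar1. Other causes were not tested. Depth is unknown, and values below 0.5 FPKM, those of Btg4 and Pabpc1l among them, rest on few fragments.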

Other observations

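The VCD libraries that were high for Cpeb1 were also high for relatives of Btg4 and H1f8. Btg2, an antiproliferative gene of the Btg family that responds early to stimuli, measured 84.6, 32.1, 13.3 and 91.8 FPKM in VCD 1 to VCD 4 and between 15.3 and 20.7 FPKM in CON. H1f2, a somatic linker histone, measured 147.8, 85.9, 67.1 and 130.6 FPKM in VCD 1 to VCD 4 and between 63.2 and 82.0 FPKM in CON. VCD 1 and VCD 4 were the high libraries and VCD 3 the low one for both, as for Cpeb1, and neither gene was called (limma adjusted p = 0.255 and 0.299). Both genes were chosen after their values were seen.

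Markers of endothelium were higher in VCD by value where the egg genes were lower. All 4 tested, Emcn, Tie1, Kdr and Cdh5, had a higher mean in VCD and 0 were called by limma, with 3 at an unadjusted p under 0.05 (18.7% of all tested genes) and 3 higher at the authors' q-value (1.75% of all genes). Emcn went from a mean of 32.96 ± 3.62 FPKM in CON to 47.6 ± 4.25 in VCD by value (SD of n = 4; limma adjusted p = 0.0631).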
